A study of Mus musculus with 18 samples.

Results

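The TGF-beta and activin pathway was followed here through 9 genes, taken by their symbols from the 36757 genes of the count table and read in all 18 libraries. They were the TGF-beta ligands Tgfb1, Tgfb2 and Tgfb3, the activin A subunit Inhba, the latency protein Ltbp1, the receptors Tgfbr1 and Tgfbr2, and the inhibitors Smad7 and Skil. The libraries were RNA-seq of C57BL/6 mice in 3 models with 2 genotypes each and 3 libraries per group, and the question was how the genes differ between wild type (RNF138fl/fl) and RNF138-/-, which by its label lacks the ubiquitin ligase RNF138. In the colitis model, colon was taken from mice that had drunk 2% dextran sulfate sodium (DSS), which injures the colonic epithelium, for 7 days and then water for 14 days, with the cycle repeated. In the cancer model the same DSS course followed the carcinogen azoxymethane (AOM, 10 mg/kg), and colon was again taken (AOM/DSS). The third set was organoids grown in matrigel from single cells released from AOM/DSS tumors, so that AOM and DSS were also part of their history. Mice were 6 to 8 weeks old at the start and were killed 4 weeks after the last cycle. All groups had received DSS, and no untreated colon was analysed here. The sources did not say whether the 3 libraries of a group came from separate animals or organoid lines, so p-values measure only the spread between these libraries, which may be technical.

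TGF-beta ligands are secreted in a latent form, held by their own propeptide and tethered to the matrix by LTBP proteins, and must be released before they bind. The freed ligand brings the receptor TGFBR2 together with TGFBR1, which phosphorylates SMAD2 and SMAD3, and these move with SMAD4 to the nucleus. Activin A, a dimer of the Inhba product, reaches the same SMADs through its own receptors, while SMAD7 blocks the receptors and SKIL blocks the SMADs in a negative feedback loop. In the gut the pathway restrains epithelial growth and immune cells and drives fibroblasts to make matrix.

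The promoters of Inhba and Ltbp1 are shown because Inhba changed most between models and Ltbp1 changed most between genotypes in organoids. They are 300-base windows of RefSeq on GRCm38.p6, which is the mm10 build of the files, and each runs 5′ to 3′ from 250 bases before a transcription start to 50 after it, on the plus strand. Ltbp1 has 2 such starts, the upstream one at chr17:75005279-75005578 and the downstream one at chr17:75178531-75178830, and the Inhba window is chr13:16011601-16011900. Capitals mark CAGAC or its reverse complement GTCTG, the short element that SMAD3 and SMAD4 bind.
Inhba: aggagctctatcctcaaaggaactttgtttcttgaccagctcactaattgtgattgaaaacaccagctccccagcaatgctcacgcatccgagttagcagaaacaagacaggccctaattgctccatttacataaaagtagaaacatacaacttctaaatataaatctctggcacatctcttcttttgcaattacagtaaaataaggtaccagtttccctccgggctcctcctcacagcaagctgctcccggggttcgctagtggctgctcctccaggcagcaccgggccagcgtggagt
Ltbp1 upstream: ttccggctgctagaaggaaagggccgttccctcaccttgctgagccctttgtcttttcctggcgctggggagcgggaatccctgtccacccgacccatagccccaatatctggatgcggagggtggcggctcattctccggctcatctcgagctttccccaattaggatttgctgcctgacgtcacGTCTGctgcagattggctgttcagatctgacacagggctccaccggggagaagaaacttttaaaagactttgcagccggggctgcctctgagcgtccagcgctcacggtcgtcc
Ltbp1 downstream: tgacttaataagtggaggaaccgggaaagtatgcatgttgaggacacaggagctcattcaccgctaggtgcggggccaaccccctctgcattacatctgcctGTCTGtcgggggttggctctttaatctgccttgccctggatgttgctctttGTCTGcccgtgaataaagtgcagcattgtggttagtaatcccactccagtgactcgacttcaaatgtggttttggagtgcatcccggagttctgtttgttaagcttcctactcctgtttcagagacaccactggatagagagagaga
The Inhba window held 0 CAGAC elements, the upstream Ltbp1 window 1 and the downstream Ltbp1 window 2, on either strand. Of all 32851 promoter windows, 49.6% held at least 1. TGANTCA, the AP-1 element, was in none of the 8 windows found for 6 of the 9 genes (not for Tgfb3, Smad7 or Skil) and in 7.81% of all windows. The counts were of whole genes and do not tell which Ltbp1 start was used.

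The genes lie on separate chromosomes and are all protein coding. On mm10 the longest is Ltbp1 (chr17:75005568-75392512, plus strand) and Inhba is at chr13:16011851-16031621 on the plus strand. Tgfb2 (chr1:186622792-186705989) and Tgfb3 (chr12:86056745-86079041), both on the minus strand, overlap short antisense genes in their exons, and whether counting used strand was not given in the sources used here. Those antisense genes had at most 4 counts in any library, against at least 67 for Tgfb2 or Tgfb3.

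Total counts ran from 11514716 to 24390082 per library (median 17332367). Rnf138 itself was not clearly lower in the libraries labelled RNF138-/-, whose levels overlapped wild type in DSS colon and organoids and lay above it in AOM/DSS colon: its mean was 19.9 and 18.8 CPM (counts scaled to a common library size) in wild type and RNF138-/- DSS colon, 25.6 and 43.4 in AOM/DSS colon, and 48.4 and 46.7 in organoids. A whole-gene count cannot show the loss of a part of the transcript, and which part was removed was not given in the sources used here, so the groups are named below by their labels. In organoids the Y-linked Ddx3y had 0 counts in the 3 wild-type libraries and 150 to 184 CPM in those labelled RNF138-/-, while Xist, made from the inactive X, was 386 to 460 CPM in the former and at most 0.158 CPM in the latter, so sex and genotype cannot be told apart there. All 12 colon libraries had Ddx3y between 18.4 and 72.9 CPM. Epithelial markers were present in every group, and fibroblast markers were present in the organoids too, at a summed 1464 to 8014 CPM over 8 genes. These are bulk samples, so more cells of a type and more RNA per cell cannot be told apart.

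The 9 genes held different places in the 3 models (levels are CPM per kb of exon, which allows genes to be compared, as means of 3 libraries). In wild-type DSS colon Smad7 (17.2) and Tgfbr2 (16.4) stood highest, with overlapping ranges, and Inhba stood lowest at 0.659, below the range of every other member. In wild-type AOM/DSS colon Tgfbr2 was highest at 16.6, and Inhba, at 2.90, overlapped its neighbours Tgfb1 above and Tgfb3 below. In AOM/DSS colon labelled RNF138-/- Inhba took the fifth place, at 7.18, and overlapped neither neighbour. In organoids Inhba was first at 123 in wild type and 247 in those labelled RNF138-/-, above the range of every other member. Tgfbr2 followed at 38.3 and 51.1. The lowest member was Ltbp1 in wild-type organoids (5.02), with a range overlapping that of Tgfb3, and Tgfb2 in organoids labelled RNF138-/- (8.46), with no overlap with the next.

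**Figure D1:**
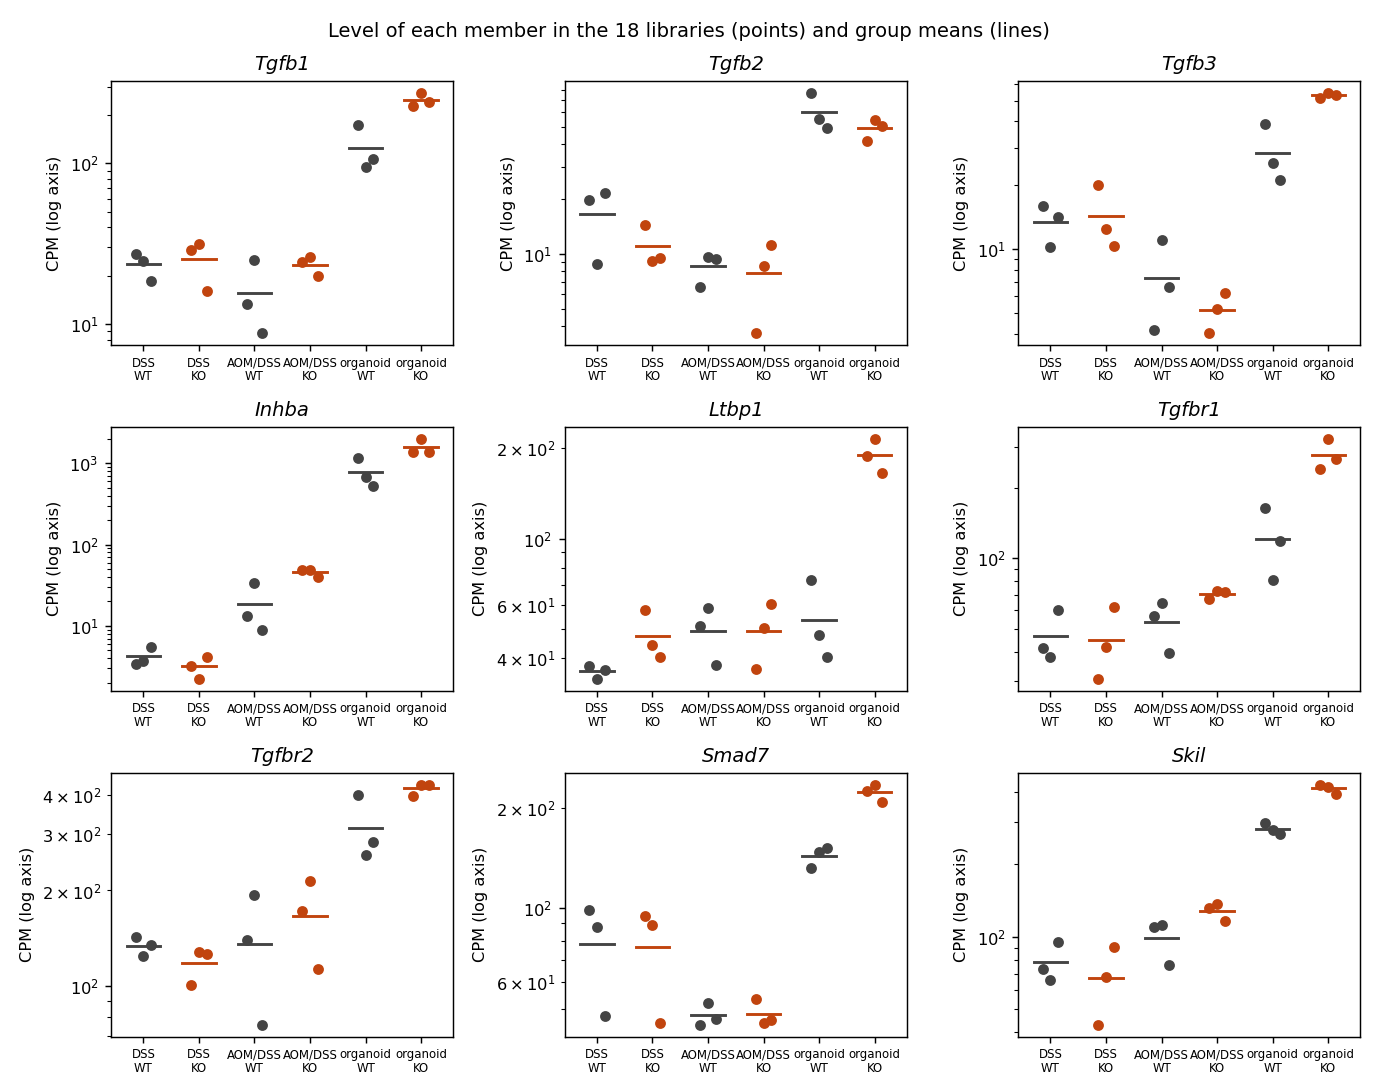
Level of each of the 9 genes in every library (CPM, log axis), by model and genotype (WT, wild type, and KO, labelled RNF138-/-); points are libraries and bars are group means of 3. Inhba runs from 2.24 to 5.46 CPM in DSS colon to 1365 to 1997 CPM in organoids labelled RNF138-/-, and the organoid libraries lie above the colon libraries for all genes but Ltbp1 in wild type.

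In DSS colon none of the 9 genes was called different between genotypes (edgeR quasi-likelihood test, Benjamini-Hochberg adjusted p under 0.05), where 0.0902% of all 16623 genes tested were called. Their median difference, RNF138-/- minus wild type, was -0.02 on the log2 scale, beside 0.02 over all genes tested, and 0 of the 9 had an unadjusted p under 0.05, which 10.4% of all genes had. With the replicate number as a block, which pairs the DSS libraries, 91 genes in place of 15 were called, again with 0 of the 9. Of the other pathway genes, 0 of 61 tested were called.

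Ltbp1, which anchors latent TGF-beta to the matrix, was the only member whose groups did not overlap in DSS colon. Its level was 37.7, 34.1 and 36.5 CPM in wild type and 57.8, 44.2 and 40.4 CPM in the libraries labelled RNF138-/-. The lowest of the latter was above the highest of the former, and of all genes tested 17.5% showed such separation. The difference was 0.42 (log2, SE 0.18, 95% interval -0.01 to 0.84) with an adjusted p of 0.486, so it was not called.

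The inhibitors and Tgfbr1 varied more between libraries than between genotypes in DSS colon. Smad7 was 98.5, 87.8 and 47.5 CPM in wild type and 94.6, 89.1 and 45.5 CPM in those labelled RNF138-/-. The third library was lowest in both genotypes. Skil was 73.2, 66.2 and 94.9 CPM in wild type and 42.9, 67.8 and 90.1 CPM with the RNF138-/- label. Tgfbr1 was 41.3, 38.1 and 60.3 CPM, and 30.6, 42.0 and 61.7 CPM, in the same order. For these last genes the third library was highest in both genotypes, and the groups overlapped. Inhba was low throughout, at 3.42, 3.75 and 5.46 CPM in wild type and 3.24, 2.24 and 4.14 CPM with the RNF138-/- label, from 37 to 87 counts per library. Its log2 difference of -0.36 had a 95% interval of -1.14 to 0.43. Over the same 6 libraries Tgfb1 ran from 16.0 to 31.5 CPM, Tgfb2 from 8.75 to 21.6, Tgfb3 from 10.3 to 20.0 and Tgfbr2 from 101 to 143, all with overlapping groups and with log2 differences of 0.13, -0.58, 0.10 and -0.15.

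In AOM/DSS colon again 0 of the 9 genes were called between genotypes, where 6.38% of 17752 genes were. At an unadjusted p under 0.05 there was 1, Inhba, beside 33.8% of all genes. The median log2 difference of the members was 0.26, beside 0.01 over all genes. Inhba, Tgfbr1 and Skil were higher in every library labelled RNF138-/- than in any wild-type library, a separation in that direction shown by 22.8% of all genes tested. The other 6 members overlapped.

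Inhba encodes the beta A chain of activin A. It was 13.2, 33.4 and 8.97 CPM in wild-type AOM/DSS colon and 48.7, 49.1 and 39.9 CPM in the libraries labelled RNF138-/-. The wild-type libraries spread widely, with the second far above the others, while those labelled RNF138-/- lay close together. The difference was 1.27 (log2, SE 0.45, 95% interval 0.19 to 2.35, adjusted p = 0.109) and was not called. It was 2.01 with an adjusted p of 0.0486 without the second wild-type library, and it was also called by DESeq2 (adjusted p = 0.041) and with all 18 libraries in 1 edgeR fit (adjusted p = 0.0253).

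Tgfbr1, the kinase receptor that phosphorylates SMAD2 and SMAD3, was 56.7, 64.6 and 39.5 CPM in wild-type AOM/DSS colon and 66.9, 72.6 and 71.8 CPM with the RNF138-/- label. The gap between the groups was small beside the wild-type spread, and the log2 difference was 0.36 (SE 0.17, adjusted p = 0.195). Skil, a SMAD corepressor, was 110, 112 and 76.0 CPM in wild type and 131, 137 and 117 CPM with the RNF138-/- label. Its log2 difference of 0.34 (SE 0.17, adjusted p = 0.197) was not called either. Smad7 hardly varied, at 44.9, 52.0 and 46.6 CPM and at 53.3, 45.4 and 46.2 CPM, and its log2 difference of -0.03 had a 95% interval of -0.34 to 0.29. The other members overlapped widely, with Tgfb1 from 8.79 to 26.1 CPM, Tgfb2 from 3.67 to 11.1, Tgfb3 from 4.04 to 11.0, Tgfbr2 from 75.8 to 213 and Ltbp1 from 36.9 to 60.5 over the 6 libraries. Their log2 differences were 0.54, -0.17, -0.54, 0.26 and -0.04, in that order.

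Of 61 other pathway genes tested in AOM/DSS colon, 1 rose and 3 fell with the RNF138-/- label, about the share of all genes called (6.38%). Tgif1, a corepressor of SMAD2, rose from 67.7 to 133 CPM (log2 difference 0.94, adjusted p = 0.0487). Tgfbr3, the coreceptor betaglycan, went from 25.3 to 6.95 CPM (-1.90, adjusted p = 0.0198). Acvr1b, the main type I receptor of activin, went from 105 to 70.7 CPM (-0.62, adjusted p = 0.0437). Tagln, which encodes a smooth muscle protein and is induced by TGF-beta, went from 7.61 to 0.835 CPM (-3.23, adjusted p = 0.0406). Without the first or without the second library labelled RNF138-/- 0 of all genes were called (edgeR, 5048 and 3900 at an unadjusted p under 0.05), so these 4 calls and those of the markers that follow rest on each of those libraries. Cell type markers moved in the same libraries: summed smooth muscle markers were 2130 to 7522 CPM in wild type and 82.9 to 172 CPM with the RNF138-/- label (6 of 6 lower), and B cell markers were 1462 to 2265 and 122 to 211 CPM (5 of 5 lower). Of the other markers 2 of 8 for fibroblasts, 1 of 8 for epithelium and 3 of 6 for enteric neurons and glia were lower, and 0 of 8 for myeloid cells, 0 of 6 for T cells and 0 of 6 for endothelium were called. The myeloid markers had positive differences in 8 of 8 (median log2 difference 0.74), 4 of them at an unadjusted p under 0.05 (edgeR), and their sums were 316 to 695 CPM in wild type and 667 to 1104 CPM with the RNF138-/- label, the direction of the Inhba difference in these libraries. The part of these markers in the results was not tested.

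In organoids 7 of the 9 genes rose with the RNF138-/- label, 2 of them, Ltbp1 and Tgfbr1, by at least 2-fold. Of all 15294 genes tested 35.5% were called, 17.9% higher, and 7.94% were higher by at least 2-fold. The median log2 difference of the members was 0.85, beside -0.04 over all genes. Scaling by total counts alone moved that median of all genes to -0.24 and the split of calls from 2734 higher and 2702 lower to 1916 and 4489, and 8 of the 9 members stayed positive under each scaling. When the 18 libraries were fitted together, 3 of the 9 were called, namely Ltbp1, Tgfbr1 and Tgfb1. No member was called lower, as 17.7% of all genes were.

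Among the ligands, Tgfb1 was 174, 94.7 and 107 CPM in wild-type organoids and 228, 275 and 241 CPM in those labelled RNF138-/-. The groups did not overlap, as was the case for 53.2% of all genes tested (28% higher), and the difference was 0.94 (log2, SE 0.21, adjusted p = 0.0122), or 1.92-fold. Tgfb3 was 38.8, 25.3 and 21.1 CPM in wild type and 51.6, 54.3 and 53.1 CPM with the RNF138-/- label. The latter were nearly equal and all above the wild-type libraries, with a difference of 0.85 (SE 0.21, adjusted p = 0.0155). Tgfb2 did not follow. It was 76.8, 55.4 and 49.6 CPM in wild type and 41.6, 54.8 and 50.7 CPM with the RNF138-/- label, overlapping, with a difference of -0.35 (SE 0.18, 95% interval -0.76 to 0.06, adjusted p = 0.152). The call of Tgfb3 was lost without wild-type library 2 (adjusted p = 0.0552), RNF138-/- library 2 (0.054) or RNF138-/- library 3 (0.0508). Its log2 difference in these fits was 0.79, 0.85 and 0.86. Tgfb2 was called lower under scaling by total counts alone (-0.55, adjusted p = 0.0198).

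Inhba was 1163, 668 and 519 CPM in wild-type organoids and 1375, 1997 and 1365 CPM with the RNF138-/- label. The groups did not overlap, though the first wild-type library came close to those labelled RNF138-/-. The difference was 0.97 (log2, SE 0.30, adjusted p = 0.037), or 1.95-fold. It was not called without wild-type library 2 (adjusted p = 0.117), wild-type library 3 (0.0797) or any of the 3 libraries labelled RNF138-/- (0.0641, 0.123 and 0.0695), nor in the fit of all 18 libraries (0.0863). The log2 difference in these fits ran from 0.74 to 1.07.

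Ltbp1 showed the largest change of the 9 genes. It was 72.9, 47.8 and 40.2 CPM in wild-type organoids and 189, 215 and 165 CPM in those labelled RNF138-/-, or 53.7 ± 17.1 against 190 ± 25.0 CPM (SD, n = 3). Each library labelled RNF138-/- was more than 2-fold above the highest of wild type. The difference was 1.78 (log2, SE 0.21, 95% interval 1.28 to 2.27, adjusted p = 0.00176), or 3.42-fold, and it was called under each of 13 alternative settings.

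The receptors differed in size of change. Tgfbr1 was 165, 80.7 and 118 CPM in wild-type organoids and 240, 324 and 264 CPM with the RNF138-/- label, without overlap. Its difference was 1.14 (log2, SE 0.24, adjusted p = 0.00905). Tgfbr2, the receptor that binds the ligand first, was 397, 259 and 283 CPM in wild type and 396, 429 and 430 CPM with the RNF138-/- label. The first wild-type library lay within the range of the others, and the difference of 0.37 (SE 0.16, 95% interval -0.00347 to 0.75, adjusted p = 0.108) was not called. Without that library it was 0.59, with an adjusted p of 0.00321.

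Both inhibitors rose. Smad7 was 132, 147 and 151 CPM in wild-type organoids and 225, 234 and 207 CPM with the RNF138-/- label. Skil was 297, 278 and 267 CPM and 431, 421 and 394 CPM in the same order. Neither gene overlapped between the groups, and the libraries of each group lay close together. The differences were smaller than those of Ltbp1 and Tgfbr1 but precise, at 0.58 for Smad7 (log2, SE 0.11, adjusted p = 0.00652) and 0.52 for Skil (SE 0.11, adjusted p = 0.00985).

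**Figure D2:**
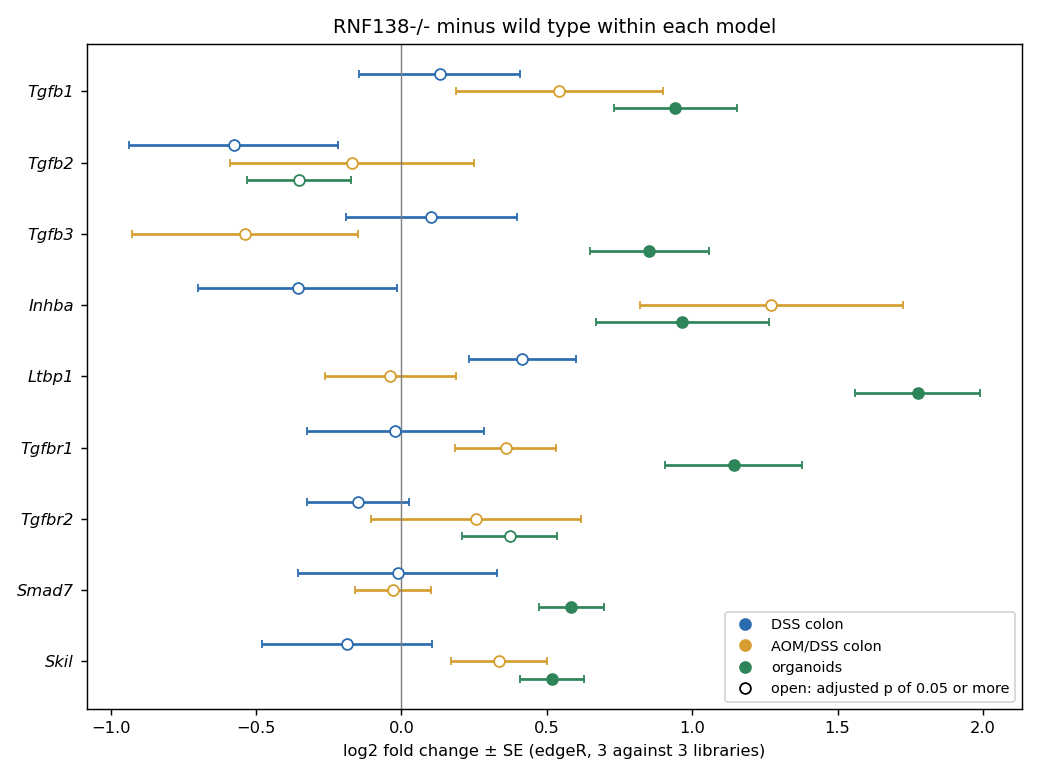
Difference between genotypes (RNF138-/- minus wild type, log2) of each of the 9 genes in DSS colon, AOM/DSS colon and organoids, with SE bars from edgeR. Filled points are called at adjusted p under 0.05. In colon 0 genes are called, and in organoids 7 are, from 0.52 for Skil to 1.78 for Ltbp1.

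Of 61 other pathway genes tested in organoids, 25 rose, 8 fell and 28 were not called with the RNF138-/- label, beside 17.9% higher and 17.7% lower over all genes tested. By at least 2-fold 17 rose and 7 fell, beside 1215 and 1077 of all 15294 genes tested. Of the genes for latency and activation 8 of 12 rose and 0 fell. They included Fbn1, the microfibril protein that holds LTBPs (528 to 2093 CPM, log2 difference 1.95), Lrrc32, which displays latent TGF-beta on the cell surface (249 to 836 CPM, 1.71), and Ltbp4 (56.6 to 166 CPM, 1.51). Of the other receptors 4 of 7 rose, among them the TGF-beta and BMP9 receptor Acvrl1 (29.4 to 130 CPM, 2.09) and Tgfbr3 (70.6 to 303 CPM, 2.06). The Smad proteins and the other inhibitors had calls in both directions: 1 of 5 rose and 1 fell among the former, and 2 of 10 rose and 2 fell among the latter. Of the other ligands 2 of 5 rose and 1 fell. Adjusted p-values of the 5 genes given with values were between 0.0019 and 0.00945 (edgeR).

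Among genes that TGF-beta is known to induce or repress, 8 of 22 rose in organoids labelled RNF138-/-, each by at least 2-fold. Of all genes tested 17.9% were higher, and 7.94% were higher by at least 2-fold. Of the same 22 genes 4 fell, at about the share of all genes (17.7%). Those that rose included the collagen gene Col3a1 (3069 to 13749 CPM, log2 difference 2.12), fibronectin, Fn1 (3252 to 9520 CPM, 1.51) and periostin, Postn (554 to 1713 CPM, 1.59), and also Nox4 (4.56 to 24.4 CPM, 2.36), which makes reactive oxygen, and the cytokine Il11 (125 to 365 CPM, 1.50). Another 10 of the 22 were not called, among them Tgfbi (206 to 257 CPM, 0.28), Timp1 (735 to 867 CPM, 0.20) and Cthrc1 (9.84 to 8.18 CPM, -0.31). The 4 that fell were Id1 (-1.41), Id2 (-1.45) and Id3 (-1.13), inhibitors of differentiation that BMP signals induce, and Itgae (-1.13), an integrin chain that TGF-beta induces in T cells. Outside that list, the decoy receptor Bambi went from 142 to 52.6 CPM (-1.48), Smad6, the inhibitor of BMP signals, from 70.4 to 34.0 CPM (-1.10), and the ligand Gdf11 from 115 to 57.2 CPM (-1.06). Mstn, myostatin, had 0 counts in the 3 wild-type libraries and 15 to 40 in those labelled RNF138-/-. Against a floor of 3 counts in each wild-type library, it was at least 8.44-fold higher with the RNF138-/- label.

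Cell type markers differed between these organoids. Summed fibroblast markers were 1464 to 3004 CPM in wild type and 6565 to 8014 CPM with the RNF138-/- label, with 7 of 8 higher. Smooth muscle markers were 59.3 to 332 and 550 to 640 CPM (3 of 6 higher), and myeloid markers 49.7 to 70.1 and 138 to 190 CPM (3 higher and 1 lower of 7 tested). Epithelial markers were 8110 to 9238 and 4982 to 7253 CPM (4 of 8 lower), and endothelial markers 12.9 to 16.5 and 5.71 to 7.44 CPM (1 of 4 tested lower). That 1 was Cldn5, with a mean of 9.31 CPM in wild type and 1.21 CPM with the RNF138-/- label, while Kdr was at 0.797 and 0.997 CPM and Pecam1, which was not tested, at 0.214 and 0.422 CPM. Neuron and glia markers were 16.8 to 20.8 and 5.78 to 8.10 CPM (1 of 2 tested lower, Uchl1). Summed T cell and B cell markers were at most 2.01 CPM in any organoid library. The part of these shifts in the rise of the 7 pathway genes was not tested.

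**Figure D3:**
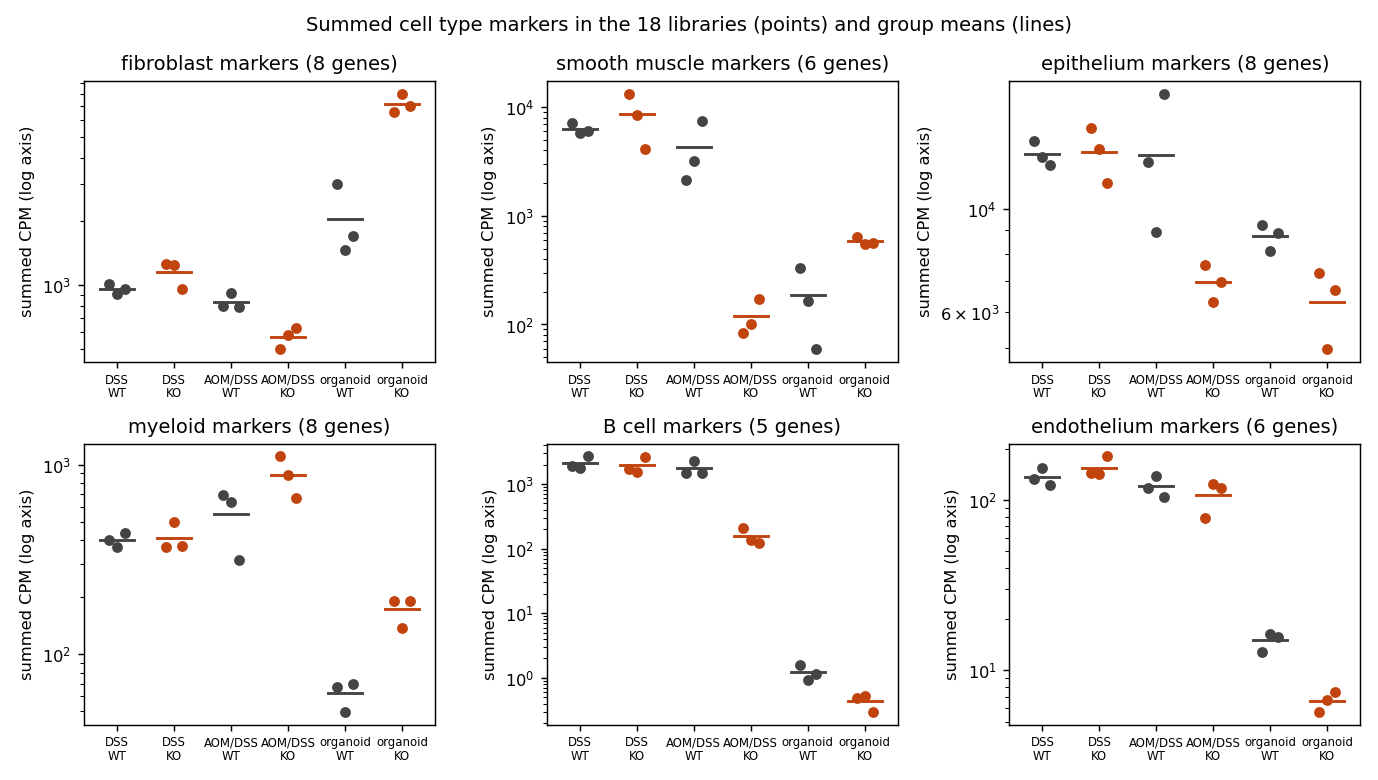
Summed level of the markers of 6 cell types (CPM, log axis) in every library, by model and genotype (WT, wild type, and KO, labelled RNF138-/-), with lines at the group means. In organoids labelled RNF138-/- fibroblast markers sum to 6565 to 8014 CPM, above the 1464 to 3004 CPM of wild type, and in AOM/DSS colon smooth muscle and B cell markers are lower with the RNF138-/- label.

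The models were compared within each genotype, with all 18 libraries in 1 fit. The labels give no batch, so a batch that goes with the model cannot be told apart from it. Between wild-type organoids and colon, sex also goes with the model, since Ddx3y had 0 counts in the former and 33.8 to 57.3 CPM in wild-type AOM/DSS colon, and the same holds for the interaction that uses those libraries. In wild type, Inhba was the only one of the 9 genes called between AOM/DSS and DSS colon, where 19.8% of all 19390 genes tested were called and 12.3% of all were called higher in AOM/DSS. It rose from 3.42 to 5.46 CPM in DSS to 8.97 to 33.4 CPM in AOM/DSS, without overlap (17.6% of all genes tested were higher without overlap), by 2.15 (log2, SE 0.42, adjusted p = 0.0022), or 4.45-fold, and it was called under each of 13 alternatives. Without the second AOM/DSS library the difference was 1.39. In the same wild-type libraries 2 of 8 myeloid markers rose and 1 fell, with S100a8 at a mean of 0.12 CPM in DSS and 23.4 CPM in AOM/DSS and S100a9 at 0.0398 and 30.7 CPM, 1 of 5 B cell markers rose and 1 of 6 neuron and glia markers fell. The summed myeloid markers were 366 to 435 CPM in DSS and 316 to 695 CPM in AOM/DSS, and their part in the result was not tested.

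Some members were lower in wild-type AOM/DSS than in DSS colon without being called. Smad7 differed by -0.69 (log2, SE 0.25, adjusted p = 0.0617), Tgfb3 by -0.86 (SE 0.33, adjusted p = 0.0743) and Tgfb2 by -0.95 (SE 0.37, adjusted p = 0.0786). Tgfb3 was 15.9, 10.3 and 14.2 CPM in DSS and 4.19, 11.0 and 6.66 CPM in AOM/DSS, where the second library alone overlapped with DSS. Without that library Tgfb3 was called (-1.32, adjusted p = 0.016), as was Tgfb1 (-1.09, adjusted p = 0.0232). Smad7 was called without the third DSS library (-0.96, adjusted p = 0.00713) and Tgfb2 without the second (-1.30, adjusted p = 0.0235). With all libraries the remaining differences, none called, were -0.57 for Tgfb1, 0.21 for Tgfbr1, 0.03 for Tgfbr2, 0.46 for Ltbp1 and 0.35 for Skil. Ltbp1 was higher in AOM/DSS without overlap, as were 17.6% of all genes tested.

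In the libraries labelled RNF138-/- 4 of the 9 genes were called between AOM/DSS and DSS colon, 2 in each direction, where 54.7% of all genes were called, 27.9% higher and 26.7% lower. Inhba rose from 2.24 to 4.14 CPM to 39.9 to 49.1 CPM, by 3.83 (log2, SE 0.45, adjusted p = 8.76e-06), or 14.2-fold. Skil rose by 0.93 (SE 0.22, adjusted p = 0.0024), from 42.9, 67.8 and 90.1 CPM to 131, 137 and 117 CPM. Both genes were without overlap between the models, as were 31.9% of all genes in that direction. Tgfb3 fell by 1.46 on the log2 scale (SE 0.33, adjusted p = 0.00166), from 20.0, 12.5 and 10.3 CPM to 4.04, 5.26 and 6.23 CPM, again without overlap (27.3% of all genes in that direction). Smad7 fell by 0.66 on the log2 scale (SE 0.25, adjusted p = 0.0343), and its groups overlapped, since the third DSS library was as low as AOM/DSS. The call of Smad7 was lost in 6 of 13 alternatives, among them without DSS library 1 (-0.48, adjusted p = 0.151) or 2 (-0.62, adjusted p = 0.0717) and without AOM/DSS library 2 (-0.61, adjusted p = 0.0973) or 3 (-0.63, adjusted p = 0.087). Tgfbr1 differed by 0.65 (SE 0.28, adjusted p = 0.059), and without the third DSS library it was called (0.91, adjusted p = 0.0138). Tgfb1 (-0.12), Tgfb2 (-0.49), Tgfbr2 (0.49) and Ltbp1 (0.06) were not called. Scaling by total counts alone moved the median of all genes from 0.04 to 0.35 and the split of calls from 5419 higher and 5184 lower to 7302 and 3814.

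Other pathway genes changed in both genotypes between AOM/DSS and DSS colon. In wild type 13 of 63 rose and 6 fell, where 19.8% of all genes were called. With the RNF138-/- label 23 rose and 17 fell, where 27.9% of all genes rose and 26.7% fell, so that the falls were at about the share of all genes. Those that rose most included Il11 (3.36 in wild type and 3.93 with the RNF138-/- label, log2), Itgb8, an integrin chain that activates latent TGF-beta (3.18 and 3.76), the ligand Gdf11 (2.49 and 3.52) and Inhbb, the beta B chain of activin B (1.35 and 2.57). In wild type Gdf11 and Inhbb overlapped between the models, while Il11 and Itgb8 did not. Gdf11 was 4.52 to 7.41 CPM in wild-type DSS and 4.53 to 47.7 CPM in AOM/DSS. Inhbb was 2.13 to 4.67 and 2.59 to 10.2 CPM in the same order. Il11 was scarce, at 4 to 7 counts per library in wild-type DSS and 7 to 155 counts in AOM/DSS. Fstl3, which binds and blocks activin, fell by 1.62 and by 2.36 on the log2 scale. Up to 6 genes are named in each direction. In wild type the 6 largest rises also included Timp1 (1.99), an inhibitor of matrix proteases, and Fst, follistatin (1.40), and the other falls were those of Ltbp4 (-1.88), Lefty1 (-1.12), Smad6 (-1.04), Ski (-0.99) and Ppm1a (-0.50). With the RNF138-/- label the 6 largest rises also included Ltbp2 (2.56) and the corepressor Tgif2 (2.05), and the 6 largest falls Tagln (-2.63), Tgfbr3 (-2.51), the inhibin subunit Inha (-2.09), the receptor Acvr1c (-2.04) and Fbn2 (-1.78). Several of these were scarce. Tgif2 had 8 to 16 counts per library in DSS colon labelled RNF138-/-. Tagln had 11 to 23, Inha 6 to 26 and Fbn2 7 to 40 counts in AOM/DSS colon with the RNF138-/- label. With that label 6 of 6 smooth muscle, 5 of 5 B cell, 6 of 6 neuron and glia and 6 of 8 fibroblast markers fell, as did 4 of 8 epithelial, 2 of 6 T cell and 2 of 6 endothelial markers. In the same comparison 5 of 8 myeloid markers and 1 each of the fibroblast, epithelial and T cell markers rose, and the part of these markers in the changes was not tested.

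Organoids stood far above AOM/DSS colon for nearly the whole group. In wild type 8 of the 9 genes were higher, each by at least 2-fold, where 60.7% of all genes were called, 27% higher and 17.5% higher by at least 2-fold. With the RNF138-/- label 9 of 9 were higher by at least 2-fold, where 59.9% were called, 25.7% higher and 17.9% higher by at least 2-fold. The median log2 differences of the members were 1.61 and 2.20, beside -0.14 and -0.22 over all genes tested. With scaling by total counts alone the medians of all genes were -0.30 and -0.84, the calls with the RNF138-/- label went from 4978 higher and 6639 lower to 2841 and 10491, and the same 8 and 9 members were called higher.

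Inhba had the largest difference, 5.42 in wild type (log2, SE 0.47, 42.9-fold) and 5.11 with the RNF138-/- label (SE 0.46, 34.5-fold). Organoid libraries held 519 to 1997 CPM against 8.97 to 49.1 CPM in AOM/DSS colon, with no overlap, which was so in that direction for 29.1% of all genes in wild type and 32.2% with the RNF138-/- label. The TGF-beta ligands followed, at 3.01 and 3.40 for Tgfb1, 2.85 and 2.65 for Tgfb2 and 1.98 and 3.35 for Tgfb3 in the same order of genotypes. Smad7 (1.61 and 2.20), Skil (1.53 and 1.70), Tgfbr1 (1.20 and 1.97) and Tgfbr2 (1.23 and 1.33) were higher by less. Ltbp1 differed from them: wild-type organoids, at 72.9, 47.8 and 40.2 CPM, overlapped wild-type AOM/DSS colon, at 51.2, 58.7 and 37.9 CPM, with a difference of 0.15 (log2, SE 0.23, 95% interval -0.33 to 0.63, adjusted p = 0.59). With the RNF138-/- label Ltbp1 was 189, 215 and 165 CPM in organoids and 36.9, 50.3 and 60.5 CPM in colon, a difference of 1.95 (SE 0.23).

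**Figure D4:**
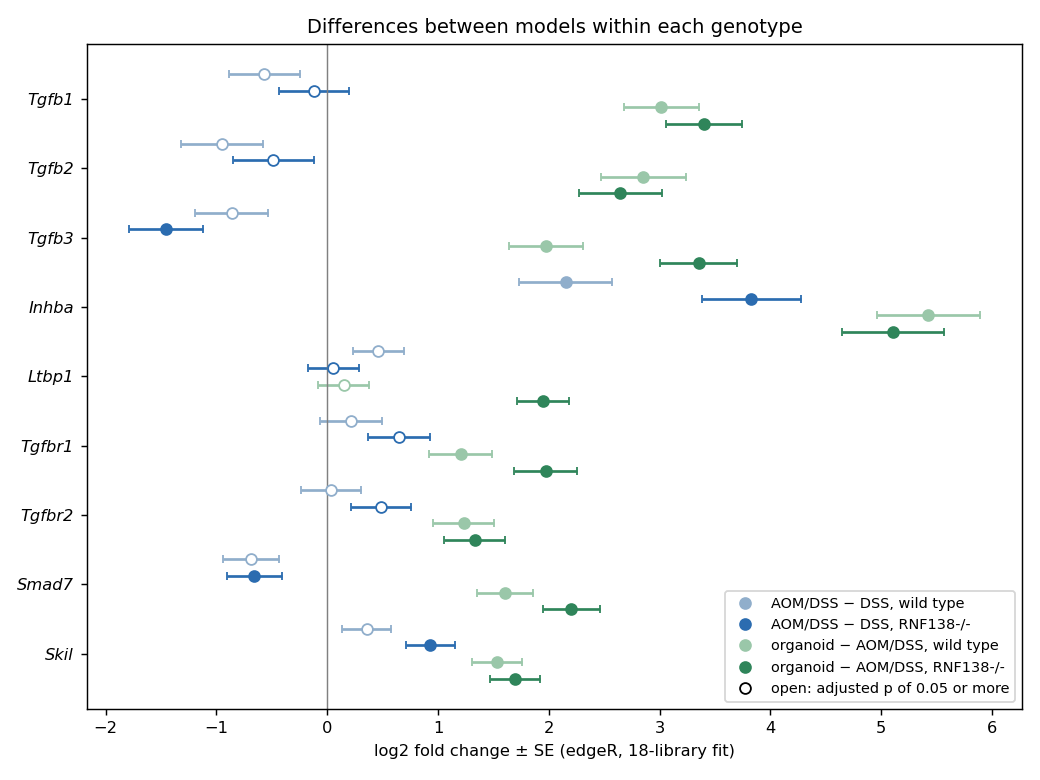
Difference between models (log2, with SE bars from edgeR) of each of the 9 genes, for AOM/DSS against DSS colon and for organoids against AOM/DSS colon, in wild type and in libraries labelled RNF138-/-. Inhba is called in all 4 comparisons, from 2.15 to 5.42, and Ltbp1 is called in 1 of them, organoids labelled RNF138-/-.

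Other pathway genes shared this direction: 42 of 63 were higher and 6 lower in organoids than in AOM/DSS colon, in each genotype, beside 27% and 25.7% of all genes higher. Of all 19390 genes tested 6531 were lower in wild type and 6639 with the RNF138-/- label. Among the large rises was that of Ltbp2, a relative of Ltbp1 (7.30 in wild type and 6.43 with the RNF138-/- label, log2). Timp1 (6.30 and 6.03) and the collagen gene Col1a1 (5.16 and 6.08) rose in both genotypes. Il11 (5.28) and Thbs1, whose product activates latent TGF-beta (4.84), were also among the largest in wild type, as was Lrrc32 (6.34) with the RNF138-/- label. Mstn, also called higher with that label, had 0 counts in AOM/DSS colon and 15 to 40 counts in organoids, so it is given no fold and no rank here. Nrros, which displays latent TGF-beta on myeloid cells (-2.35 and -2.94), and Itgae (-1.90 and -3.34) were lower in both genotypes, as was Acvr1c. Acvr1c had 70 to 126 counts in wild-type AOM/DSS colon and 0 to 1 in wild-type organoids. With the RNF138-/- label it had 16 to 75 and 1 to 4 counts, so its folds rest on few reads and are not given. Gdf3, a ligand that was scarce throughout, had 0 counts in all 6 organoid libraries and 0 to 27 and 2 to 23 counts in wild-type and RNF138-/- AOM/DSS colon. In wild type Tagln (-1.76) and Acvr1b (-0.87) were also lower, and with the RNF138-/- label Id1 (-1.67) and Itgb8 (-1.42). Between wild-type organoids and colon, 5 of 8 fibroblast markers were higher and 1 lower, and 6 of 6 smooth muscle, 5 of 6 endothelial, 6 of 8 myeloid, 6 of 6 T cell, 5 of 5 B cell, 4 of 6 neuron and glia and 4 of 8 epithelial markers were lower, with 1 epithelial marker higher. With the RNF138-/- label 7 of 8 fibroblast and 3 of 6 smooth muscle markers were higher, and 8 of 8 myeloid, 6 of 6 T cell, 5 of 5 B cell, 5 of 6 endothelial, 3 of 8 epithelial and 1 of 6 neuron and glia markers were lower. The part of these markers in the differences was not tested.

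Whether the genotype difference itself differed between models was tested as an interaction. Between AOM/DSS and DSS colon 0 of the 9 genes were called, where 14.1% of all genes were. Inhba came nearest: its genotype difference in AOM/DSS exceeded that in DSS by 1.67 (log2, SE 0.58, adjusted p = 0.0655), and it was the 1 member at an unadjusted p under 0.05, which 30.1% of all genes had. It was called by DESeq2 (1.64, adjusted p = 0.034), with no filter on low counts (adjusted p = 0.0235) and without the second wild-type AOM/DSS library (2.36, adjusted p = 0.00452). For the other members the value was 0.58 for Skil, 0.46 for Tgfb2, 0.45 for Tgfbr2 and for Tgfb1, 0.43 for Tgfbr1, 0.0317 for Smad7, -0.41 for Ltbp1 and -0.59 for Tgfb3, with adjusted p-values of 0.231 to 0.972. Of 63 other pathway genes 2 were called in each direction. In the same test 6 of 6 smooth muscle, 5 of 5 B cell, 6 of 6 neuron and glia, 4 of 8 epithelial, 2 of 6 T cell and 1 of 8 fibroblast markers were called lower, and 0 of 8 myeloid and 0 of 6 endothelial markers were called. Their part in the results was not tested. Scaling by total counts alone moved the split of all calls from 817 higher and 1916 lower to 1193 and 1510, and the median of all genes from -0.00431 to 0.24.

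Between organoids and AOM/DSS colon 2 of the 9 genes were called, where 23.3% of all genes were, 13.1% higher. The genotype difference of Ltbp1 was larger in organoids by 1.80 (log2, SE 0.32, adjusted p = 0.00127), while its colon groups had nearly the same mean (49.3 and 49.2 CPM), and it was called under each of 19 alternatives. That of Tgfb3 was larger by 1.38 (SE 0.46, adjusted p = 0.0401). Tgfb3 had a lower mean with the RNF138-/- label in AOM/DSS colon (7.29 and 5.18 CPM) and a higher one in organoids (28.4 and 53.0 CPM). Its call was kept in 8 of 19 alternatives and was lost without any of 9 of the 12 libraries; without the second wild-type AOM/DSS library the value was 0.97 (adjusted p = 0.117). For Inhba the value was -0.32 with a 95% interval of -1.48 to 0.84. For the others it was 0.77 for Tgfbr1, 0.60 for Smad7, 0.39 for Tgfb1, 0.17 for Skil, 0.10 for Tgfbr2 and -0.21 for Tgfb2, with adjusted p-values of 0.167 to 0.892. Of 63 other pathway genes 10 were called higher and 7 lower. In the same test 7 of 8 fibroblast, 6 of 6 smooth muscle, 4 of 8 epithelial and 3 of 8 myeloid markers were called higher, with 1 epithelial and 1 myeloid marker lower and 1 B cell and 1 neuron and glia marker higher, and their part in the results was not tested. Scaling by total counts alone moved the split of all calls from 2540 higher and 1987 lower to 1663 and 4459, and the median of all genes from -0.04 to -0.49. With that scaling 4 of the 9 members had a positive value, in place of 7.

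Across the 12 colon libraries, which share their models and so are not independent points, the members did not move as a block. Tgfbr1 and Skil ran together (Pearson r = 0.95 of log2 CPM), as did Inhba and Skil (r = 0.84), while Smad7 ran opposite to Tgfbr1 (r = -0.78). Over the 6 organoid libraries r of these pairs was 0.91, 0.88 and 0.82, in the same order. In colon the genes most like Inhba among 12366 with a mean of at least 5 CPM were Cnot7 (r = 0.99), a subunit of the deadenylase complex, and the matrix metalloproteinases Mmp13 and Mmp12 (r = 0.98 each). In the 6 organoid libraries r with Inhba was -0.94 for Cnot7, 0.95 for Mmp13 and 0.69 for Mmp12. For the other members the closest gene in colon was Rnf26 for Smad7 (r = 0.99), Gapvd1 for Skil (0.99), Stag1 for Tgfbr1 (0.98), Pdgfb for Tgfb1 (0.96), Parvb for Tgfb3 (0.95), H6pd for Tgfbr2 (0.95), Plekhh2 for Tgfb2 (0.89) and Cdh11 for Ltbp1 (0.85). In organoids r of these pairs was 0.82, 0.24, 0.89, -0.11, 0.56, 0.96, -0.30 and -0.52, in the same order.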

How the data were processed

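RNA-seq libraries were made, per the labels, from TRIzol-extracted RNA with the Illumina TruSeq kit. The methods name TRIzol or an RNeasy kit for the extraction and do not say which samples had which. The authors deposited raw counts per gene (mm10), 1 column for each of the 18 libraries. The submitters' processing notes name STAR 2.6.1d, HTSeq 0.11.2 and DESeq2, and the methods name Cufflinks, so the counter is not settled here. A second deposited table held the authors' own fold changes and p-values and was not used. The genes and lists were chosen with earlier results of these data known.

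Genotypes were compared within each model (6 libraries) and models within each genotype in a fit of all 18 libraries, with the quasi-likelihood test of edgeR 4.0.16 in R 4.3.3 (TMM scaling, filterByExpr, two-sided, Benjamini-Hochberg over all genes tested). A gene was called at an adjusted p under 0.05, which is wider than the study's definition, an adjusted p under 0.05 with a change of at least 2-fold; calls that also met the latter were counted apart. Differences and SE are log2 values of these fits. CPM used the TMM factors of all 18 libraries. Alternatives were DESeq2 1.42.0, RLE factors, no scaling factor, no or a stricter filter (1 CPM in 3 libraries), each library left out, a replicate block, a fit of other libraries and a Y-linked covariate. The fits were tested on simulated data.

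All 9 genes are reported in every comparison. Other pathway genes were named where called, up to 12 by size of change between genotypes and up to 6 in each direction between models, and further called ones were named as examples after their values were seen. A gene that this rule names is not reported here. Similar genes were the 3 with the highest Pearson r. Same-numbered DSS libraries deviated together (r of 0.32, 0.18 and 0.62 between genotypes), so the numbers were taken to pair them there. Gene positions came from a GENCODE annotation of mm10. Counting noise was small beside the spread between libraries. The precision was set by the 3 libraries of a group.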

Additional observations from a re-analysis of the deposited data

Results flagged for a closer look

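The difference between genotypes was itself different between organoids and AOM/DSS colon for Ltbp1 and Tgfb3, by the interaction test in edgeR's fit of all 18 libraries. For Ltbp1 the genotype difference was larger in organoids by 1.80 (log2, SE 0.32, adjusted p = 0.00127): it was higher in 3 of 3 organoid libraries labelled RNF138-/- than in any wild-type one, and its colon groups overlapped. For Tgfb3 it was larger by 1.38 (SE 0.46, adjusted p = 0.0401), with 3 of 3 organoid libraries labelled RNF138-/- above wild type and overlapping colon groups, and this call was lost in 11 of 19 alternatives (adjusted p up to 0.117). Fibroblast markers differed between the same organoids (1464 to 3004 CPM in wild type and 6565 to 8014 CPM with the RNF138-/- label, summed), as did Ddx3y, and smooth muscle markers differed in AOM/DSS colon (2130 to 7522 CPM in wild type and 82.9 to 172 CPM with the RNF138-/- label, 6 of 6 lower). Their part in both results was not tested.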

How the results depend on the processing

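Counts of all genes called moved with the settings in colon more than in organoids. In DSS colon 15 genes were called, and 29 without a scaling factor, 395 by DESeq2, 362 without a filter, 91 with the replicate block, 214 with the Y-linked covariate and 0 to 147 with 1 library left out, the 0 being without the third wild-type library (edgeR, 1315 genes at an unadjusted p under 0.05), with 0 of the 9 genes called under any of them. In AOM/DSS colon 1132 became 4007 by DESeq2, 1871 without a filter, 4560 in the fit of all 18 libraries and 0 to 1637 with 1 library left out, the 0 being without the first or the second library labelled RNF138-/- (5048 and 3900 genes at an unadjusted p under 0.05), and 0 of the 9 called higher became 1, Inhba, by DESeq2 and in the fit of all 18 libraries, and 0 to 1 with 1 library left out. In organoids 5436 became 3258 and 7 of the 9 became 3 in the fit of all 18 libraries, 1 was called lower without a scaling factor, and 2708 to 6871 genes and 5 to 8 members called higher were found with 1 library left out. Between AOM/DSS and DSS colon, members called lower in wild type went from 0 to 1 by DESeq2 and without a filter and to 0 to 2 with 1 library left out, with 2150 to 4378 genes called. With the RNF138-/- label the members called higher went from 2 to 4 and those lower from 2 to 1 without a scaling factor, and the latter also to 1 in the fit of 12 libraries and to 1 to 2 with 1 library left out. For the difference of genotypes between AOM/DSS and DSS, 2733 genes became 1633 in the fit of 12 libraries and 1537 to 3448 with 1 library left out, and 0 members became 1 by DESeq2 and without a filter, and 0 to 1 with 1 library left out. Between organoids and AOM/DSS, 2 members became 1 without a scaling factor and with the replicate block (Tgfb3, adjusted p = 0.0509), and 1 to 2 with 1 library left out.

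Signs turned only for differences that were not called. In AOM/DSS colon Tgfb2 became 0.12 without a scaling factor, Smad7 became 0.24 without a scaling factor, 0.012 without a filter and 0.0252 in the fit of 18 libraries, and Ltbp1 became 0.21, 0.000913 and 0.0138 under the same settings. Between AOM/DSS and DSS colon Tgfbr2 in wild type became -0.0162 with the replicate block, and with the RNF138-/- label Tgfb1 became 0.21 without a scaling factor and Ltbp1 -0.00546 with the stricter filter. Between wild-type organoids and AOM/DSS colon Ltbp1 became -0.054 without a scaling factor. With 1 library left out the differences ran from -0.0478 to 0.37 for Tgfb1, -0.20 to 0.27 for Tgfb3, -0.36 to 0.21 for Tgfbr1, -0.27 to 0.24 for Smad7 and -0.50 to 0.0568 for Skil between genotypes in DSS colon. In AOM/DSS colon they ran from -0.49 to 0.17 for Tgfb2, -0.11 to 0.0354 for Smad7 and -0.19 to 0.13 for Ltbp1. Between AOM/DSS and DSS they ran from -0.33 to 0.31 for Tgfbr2 in wild type and -0.12 to 0.23 for Ltbp1 with the RNF138-/- label, and between wild-type organoids and AOM/DSS from -0.13 to 0.31 for Ltbp1.

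Outside DSS colon the replicate numbers did not pair the samples (r of 0.02, 0.27 and 0.10 between genotypes in AOM/DSS colon and -0.27, -0.11 and 0.12 in organoids), and the block gave 1219 and 4032 genes called there; beside Tgfb3 it changed no other call among the 9 genes. The Y-linked covariate was not run in AOM/DSS colon and organoids, where it divided the libraries as the genotype does. The cause of these changes was not tested. Inhba in DSS colon, at 37 to 87 counts per library, held the lowest count of any member.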
